A study of Mus musculus with 16 samples.

Results

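Glycolysis and hypoxia-induced genes were followed in neural stem cells (NSCs) with intact or mutated Tsc2. The set held 34 genes chosen by symbol from the 24946 genes of the data, and all 34 were present in both the total and the polyribosomal RNA table. They were 8 genes of the steps from hexokinase to aldolase, 9 of the steps from the triose phosphates to lactate, 4 glucose and lactate transporters, 3 regulators of glycolysis, the oxygen-regulated factor Hif1a with 2 prolyl hydroxylases, and 7 hypoxia-induced effectors. All 34 had a mean of at least 10 normalized reads in each table and were tested.

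The study profiled monolayer cultures of the V-SVZ (ventricular-subventricular zone), where NSCs line the lateral ventricles of the mouse brain. Neonatal pups came from crosses with Nestin-CRE-ERT2, a tamoxifen-inducible Cre that acts in Nestin-expressing cells, and a ROSA26 tdTomato reporter (RFP), and received tamoxifen a week before the tissue was taken. The control group was Tsc2 wt/wt and the mutant group, labelled TSC, carried the conditional allele Tsc2tm1.1Mjg on both copies (Tsc2 mut/mut). Each group had 4 cultures, and each culture gave a total RNA library and a library of polyribosomal RNA, the mRNA that sedimented with heavy polyribosomes in sucrose, so that 16 libraries formed 4 groups of 4. Both groups were grown with FGF and EGF, passaged once and held in cycloheximide for 15 minutes before lysis. Whether control pups carried Cre and how many pups made up a culture were not given in the sources used here. The study lists 4 cultures per genotype for the profiling and 4 mice per genotype for its gene ontology terms, without linking mice to cultures. The study describes its NSC subcultures as RFP positive and the mutant ones as lacking Tsc2, without a share of recombined cells for these libraries.

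Glycolysis splits glucose into pyruvate, which lactate dehydrogenase can turn into lactate for export by monocarboxylate transporters. HIF1A is a transcription factor whose protein is marked for destruction by prolyl hydroxylases while oxygen is plentiful, and which raises transcription of glycolytic enzymes, Slc2a1 and Vegfa when oxygen is scarce. TSC2 restrains mTORC1, a kinase complex that promotes translation and is known to raise HIF1A and glycolysis in several cell types.

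Column totals were 65.8 to 73.9 M normalized reads in total RNA and 87.7 to 101 M in polyribosomal RNA. Tsc2 itself was 6896 ± 676 in control and 6417 ± 664 in mutant total RNA (mean ± SD, n = 4), and 11448 ± 1229 against 8256 ± 1550 in polyribosomal RNA, where it fell (log2 change -0.49 ± 0.15 SE, limma adjusted p = 0.0389). A total per gene does not resolve the deleted exons. NSC markers were at a mean log2 level of 13.96 to 14.26 in control and 14.07 to 14.23 in mutant total RNA. On polyribosomes they were at 13.90 to 14.11 in control and 13.79 to 13.96 in mutant cultures. Of 16 NSC markers 3 were higher and 2 lower in mutant total RNA, beside 19.7% and 20.7% of all genes. On polyribosomes 1 was higher and 3 were lower, beside 11.7% and 11.9%. The endothelial marker Cldn5 and the red cell gene Hbb-bs were at or near 0. Several other lists moved with genotype. All 25 S phase genes tested were lower in mutant total RNA, with the list level at 12.99 to 13.27 in control and 11.85 to 12.85 in mutant cultures. In mutants 9 of 9 myelin genes, 6 of 8 astrocyte genes, 7 of 18 microglial genes, 5 of 10 endothelial genes, 2 of 7 choroid plexus genes and 2 of 9 neuronal genes (with 1 lower) were higher in total RNA, beside 19.7% of all genes, and microglial genes were highest in mutant cultures 2 and 4. On polyribosomes 8 of 9 myelin, 5 of 8 astrocyte, 1 of 16 microglial, 2 of 6 endothelial, 5 of 7 choroid plexus and 3 of 9 neuronal genes were higher, beside 11.7% of all genes. There 1 astrocyte, 1 neuronal and 18 of 25 S phase genes were lower. The Y-linked level in total RNA was 9.92, 10.19, 10.42 and 5.94 in control cultures 1 to 4. In mutant cultures 1 to 4 it was 10.15, 3.71, 2.22 and 1.00, with mutant culture 1 the only high one. Sex is not among the labels used here, and effects of sex and genotype cannot be fully told apart in these cultures. Red cell genes were at 0.92 to 1.51 in all cultures. The part of these shifts in the results on glycolysis and hypoxia genes was not tested beyond the fits with the Y-linked and microglial covariates given beside the counts.

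Promoter sequence is shown for 4 members that were lower in mutant cultures, because HIF1A binds a short core, ACGTG or GCGTG, near the genes it activates. Both cores were searched on both strands in the 250 bases before each RefSeq transcription start (GRCm38.p6), with overlapping hits counted separately, so that the palindrome CACGTG counts as 2. Of the 34 members 31 matched the promoter table (not Slc2a3, Bnip3l or Ndrg1), Ero1l under its symbol Ero1a. At least 1 core was found in 28 of 31 members (90.3%) and in 41.5% of 27025 genes. The members were chosen in part as HIF1A targets, so this contrast is no test of a link to HIF1A. A gene counted if any of its windows held a core, with 45 windows for the 31 members and 32851 for all genes. The members' promoters were also richer in G and C, with a median of 66.4% against 52.8%, and both cores contain CG. ACGTG was found in 64.5% of members and 18.5% of all genes, and GCGTG in 67.7% and 30.9%. A core stood before 6 of 6 members that were lower in total or polyribosomal RNA of mutants and before 5 of the 6 higher members with an entry, all but Eno2. The 4 promoters lie at chr6:82774455-82774704 (minus strand), chr2:11502091-11502340 (minus strand), chr3:104638414-104638663 (plus strand) and chr7:46845554-46845803 (plus strand), and capitals mark the cores on either strand. Pfkfb3 and Ldha each have a further start site in the table, with 1 core, and the window with more cores is printed.
Hk2: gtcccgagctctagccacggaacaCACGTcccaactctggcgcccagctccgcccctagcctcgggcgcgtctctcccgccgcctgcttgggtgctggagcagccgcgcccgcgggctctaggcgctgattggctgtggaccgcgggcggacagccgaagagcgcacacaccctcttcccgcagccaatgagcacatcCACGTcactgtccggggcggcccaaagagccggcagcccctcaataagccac
Pfkfb3: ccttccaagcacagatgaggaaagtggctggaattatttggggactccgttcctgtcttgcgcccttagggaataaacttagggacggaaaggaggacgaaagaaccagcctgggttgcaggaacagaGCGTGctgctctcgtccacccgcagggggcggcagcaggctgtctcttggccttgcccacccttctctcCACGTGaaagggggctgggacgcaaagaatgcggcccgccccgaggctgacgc
Slc16a1: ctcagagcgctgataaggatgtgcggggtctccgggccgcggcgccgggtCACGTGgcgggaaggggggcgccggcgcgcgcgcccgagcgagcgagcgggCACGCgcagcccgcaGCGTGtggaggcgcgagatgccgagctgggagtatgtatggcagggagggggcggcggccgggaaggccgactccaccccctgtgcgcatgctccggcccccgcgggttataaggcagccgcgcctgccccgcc
Ldha: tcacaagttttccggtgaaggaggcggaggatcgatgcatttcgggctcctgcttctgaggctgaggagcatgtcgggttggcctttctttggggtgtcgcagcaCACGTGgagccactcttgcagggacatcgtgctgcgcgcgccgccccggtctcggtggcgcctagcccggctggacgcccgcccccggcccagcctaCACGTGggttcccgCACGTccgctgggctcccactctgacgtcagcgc
A match describes the letters and does not show binding.

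Members differed widely in level. Per kilobase of the transcript with the longest coding sequence, Gapdh was the most abundant member in control total RNA, at 179720 ± 8657 normalized reads per kb, followed by Eno1 at 102637 ± 7224, Pkm at 90127 ± 6284, Aldoa at 58834 ± 2529 and Ldha at 48988 ± 2921 (SD, n = 4). Enzymes that catalyse the lower steps thus took 4 of the first 5 places. The lowest were Slc16a3 at 67.0 ± 63.5 and Ankrd37 at 35.1 ± 9.7. Exons of 13 of the 34 members overlap those of another gene, and the kit did not mark strand, so reads of Hk1 and its antisense gene Hk1os, or of Tpi1 and Spsb2, cannot be told apart. Reads of Eno1 can also be split with its near-identical copy Eno1b.

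In total RNA 7 members were higher and 5 were lower in mutant cultures, 35.3% of the 34, against 40.3% of all genes tested (19.7% higher and 20.7% lower). The higher members were Hk1, Pfkm, Pfkp, Eno2, Ldhb, Vegfa and Bnip3l, and the lower were Pgam1, Ldha, Slc16a1, Pfkfb3 and Egln3. In polyribosomal RNA 3 members were higher (Eno2, Ldhb, Bnip3l) and 4 lower (Hk2, Slc16a1, Pfkfb3, Egln3), 20.6% against 23.6% of all genes (11.7% higher and 11.9% lower). The share of members called was thus near that of all genes in both fractions, and the median change of the members was 0.03 in total and 0.00 in polyribosomal RNA, against 0.01 and 0.01 over all genes tested. Genotypes did not overlap for 4 higher and 8 lower members in total RNA (38.1% of all genes did not overlap, 17.8% higher and 20.3% lower) and for 3 and 5 in polyribosomal RNA (27.9% of all genes, 13.3% and 14.6%). Leaving out 1 culture at a time gave 4 to 8 higher and 3 to 6 lower members in total RNA, with 4 higher without mutant culture 1 and 3 lower without control culture 1 or 4 or mutant culture 1, and 2 to 5 higher in polyribosomal RNA, with 5 without mutant culture 2. Scaling by column totals gave 5 higher and 4 lower members in polyribosomal RNA, beside 2583 and 929 of all genes. Quantile normalization gave 6 and 4 members, beside 1306 and 1450 of all genes. Each gave 3 lower members in total RNA, beside 2263 and 3206 of all genes lower.

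Translational efficiency, the change in polyribosomal RNA beyond that in total RNA of the same cultures, was lower for 7 members (20.6% of the 34, against 7.89% of all genes) and higher for 1 (2.94%, against 5.07%), beside 13.0% of all genes in either direction. The lower members were Hk1, Hk2, Slc2a3, Slc16a1, Slc16a3, Pfkfb3 and Vegfa, and the higher member was Ldhb. The members' median was -0.07 against 0.01 over all genes, and genotypes did not overlap for 3 higher and 7 lower members (19.0% of all genes did not overlap, 8.16% higher and 10.8% lower). With the microglial level as a covariate 1 member was higher and 2 (Hk2 and Vegfa) were lower, and Hk1, Slc2a3, Slc16a1, Slc16a3 and Pfkfb3 did not pass, at log2 changes of -0.59, -0.74, -0.54, -1.02 and -0.43. Efficiency was lower for 7 of 16 microglial genes, with a median of -0.79. Without control culture 3, mutant culture 1 or control culture 2 the lower members numbered 3, 4 and 5, and no member was higher. No member and no gene passed with limma without trend and robust moderation, or without culture as a block, although 9 and 5 members had an unadjusted p under 0.05.

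Calls were fewer without mutant cultures 1 and 3, which had the lowest S phase level and whose removal left 2 mutant cultures. Eno2 was then the only higher and Pfkfb3 the only lower member in total RNA, none was higher and 3 (Hk2, Slc16a1 and Pfkfb3) were lower in polyribosomal RNA, and none passed for translational efficiency, with 9 members at an unadjusted p under 0.05 in each of the 3 limma fits. With Y-linked expression as a covariate 0 members were higher and only Pfkfb3 was lower in total RNA, and 0 passed in polyribosomal RNA or for translational efficiency, with 9, 6 and 8 at an unadjusted p under 0.05. Without mutant cultures 2 and 4, the ones high in microglial genes, 10 members were higher and 8 lower in total RNA, beside 3220 and 3558 of all genes, and 7 higher and 5 lower in polyribosomal RNA, beside 2582 and 2813. With the microglial level as a covariate 10 members were higher and 8 lower in total RNA, beside 3143 and 3486 of all genes. In polyribosomal RNA 6 and 4 members were, beside 1982 and 2054. Labels give no animal or litter for a culture, and the spread behind the p-values may be partly technical.

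**Figure D1:**
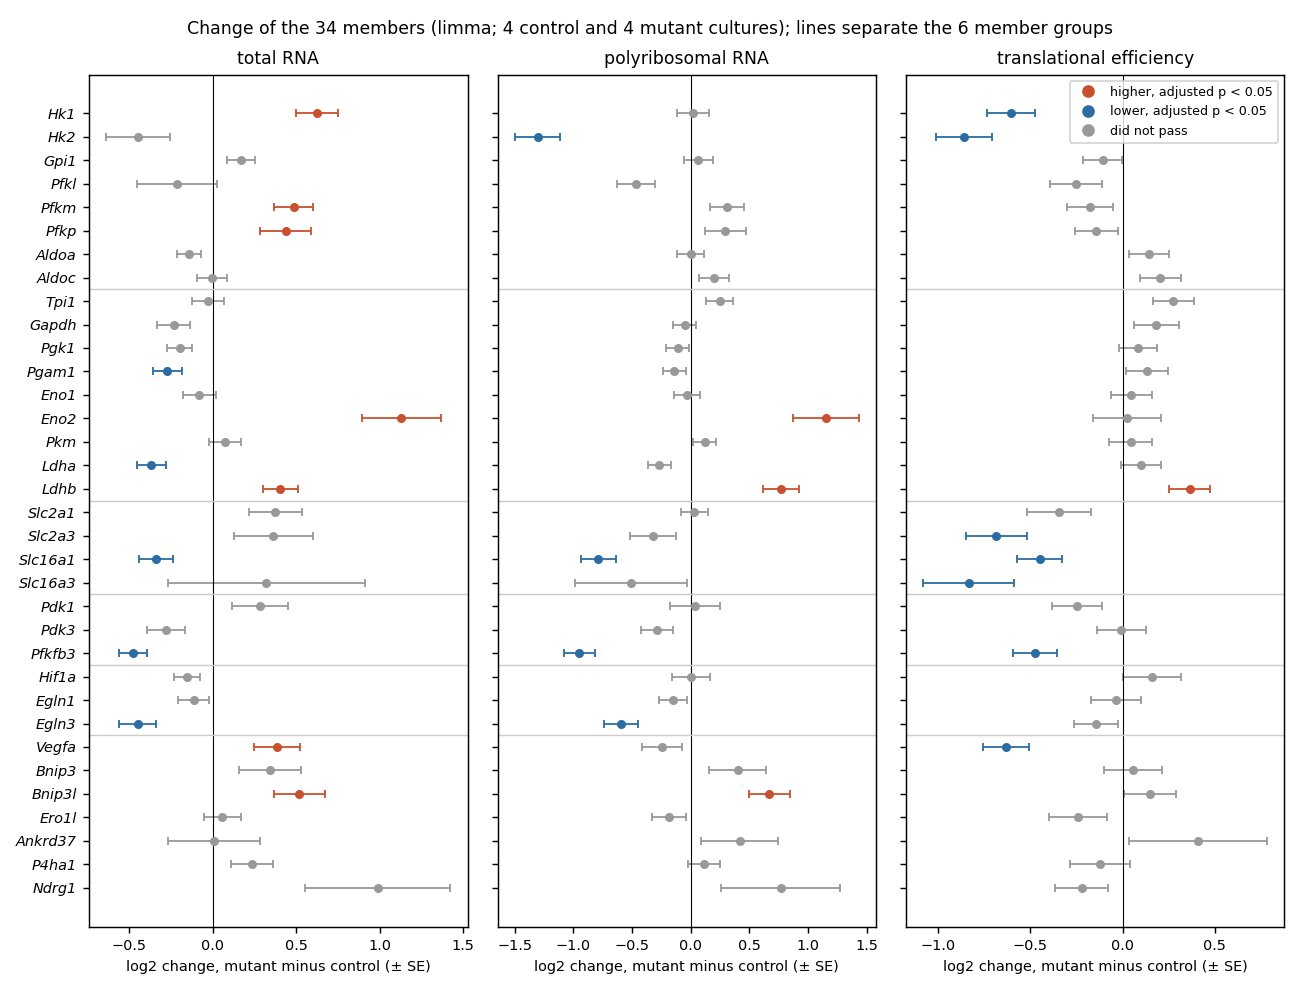
Log2 change of each of the 34 members, mutant minus control (± SE, x axis), in total RNA, polyribosomal RNA and translational efficiency, with lines between the 6 member groups. Coloured points passed an adjusted p of 0.05: 7 higher and 5 lower in total RNA, 3 and 4 in polyribosomal RNA, 1 and 7 in translational efficiency, where all 4 transporters lie below 0 and all 9 genes from the triose phosphates to lactate lie above it.

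The hexokinases, which trap glucose in the cell as its phosphate, moved apart. Hk1, the broadly expressed isozyme (chr10:62268855-62379908), had 12024, 10723, 8624 and 12002 normalized reads in control cultures 1 to 4 and 18587, 14127, 17639 and 16246 in mutant cultures 1 to 4 of total RNA. All mutant cultures were above all controls, and Hk1 rose by 0.62 ± 0.13 on the log2 scale (adjusted p = 0.00554). On polyribosomes Hk1 did not follow: controls ranged from 9217 to 12081 and mutants from 9159 to 12419, a log2 change of 0.02 ± 0.13, and its efficiency fell by 0.60 (SE 0.13, adjusted p = 0.0104).

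Hk2, the inducible isozyme that binds mitochondria (chr6:82725025-82774454, its promoter printed above), showed the largest fall of any member on polyribosomes. Its polyribosomal values were 4234, 3036, 3030 and 2983 in control and 1229, 1952, 1244 and 1040 in mutant cultures. The groups did not overlap, and the log2 change was -1.31 ± 0.19 (adjusted p = 0.00255), a level 0.405 of control. In total RNA it read 2452, 1493, 1212 and 1593 in control and 1145, 1411, 1122 and 1130 in mutant cultures, which overlapped (log2 change -0.45 ± 0.19, adjusted p = 0.0834). Efficiency fell by 0.86 (SE 0.15, adjusted p = 0.00613), and the polyribosomal call held in 18 of 19 alternatives, ending with the Y-linked covariate (log2 change -1.24, adjusted p = 0.0623).

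Among the phosphofructokinases, which commit sugar to glycolysis, the muscle-type Pfkm and the platelet-type Pfkp rose in total RNA. Pfkm read 9919, 9332, 8057 and 9149 in control and 12685, 10290, 14045 and 14285 in mutant cultures, with no overlap (0.49 ± 0.12, adjusted p = 0.00981). Pfkp read 10268, 8634, 6560 and 9680 against 13275, 10171, 13612 and 10306, where mutant cultures 2 and 4 lay close to control culture 1 (0.44 ± 0.15, adjusted p = 0.0442). Its call was lost without control culture 2, 3 or 4 or mutant culture 1 or 3, at log2 changes of 0.30 to 0.49. Neither passed on polyribosomes (0.31 ± 0.14 and 0.30 ± 0.18). The liver-type Pfkl read 11024, 5790, 4306 and 5375 in control and 5118, 5331, 6129 and 4911 in mutant total RNA, and was -0.21 ± 0.24 in total and -0.46 ± 0.16 in polyribosomal RNA (adjusted p = 0.0519), and Gpi1, the isomerase before this step, was 0.17 ± 0.08 and 0.06 ± 0.12. The aldolases, which cleave the sugar into triose phosphates, did not pass in any comparison: Aldoa was -0.14 ± 0.07 and 0.00 ± 0.11, and Aldoc, the form typical of astrocytes, -0.01 ± 0.09 and 0.20 ± 0.13. In total RNA Aldoa did not overlap, at 79413 to 85762 in mutant and 86496 to 94692 in control cultures (limma adjusted p = 0.129).

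Below the aldolase step most enzymes stayed within 0.3 log2 of control. Of Tpi1, Gapdh, Pgk1, Eno1 and Pkm, which carry the triose phosphates to pyruvate, none passed in any comparison, with changes of -0.23 to 0.08 in total and -0.11 to 0.25 in polyribosomal RNA. In total RNA Gapdh (161354 to 209852 in mutant, 218935 to 244300 in control cultures) and Pgk1 (56069 to 65344 against 68069 to 71689) did not overlap. Their limma adjusted p was 0.082 and 0.0581. Tpi1, Eno1 and Pkm overlapped. Pgam1, which moves the phosphate of phosphoglycerate, read 64538, 61766, 63446 and 60990 in control and 52643, 55848, 44775 and 55312 in mutant total RNA. The groups did not overlap and Pgam1 fell by 0.27 (SE 0.09, adjusted p = 0.0316), but the call was lost without any 1 of the 4 control cultures or mutant culture 1, at -0.28 to -0.26, and under quantile normalization (-0.11, adjusted p = 0.226). On polyribosomes it was -0.14 ± 0.10.

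Eno2, the enolase of neurons (chr6:124760053-124769673), had the largest rise. In total RNA it read 407, 278, 245 and 328 in control and 755, 495, 1011 and 555 in mutant cultures, without overlap, a change of 1.13 ± 0.24 (adjusted p = 0.00622). On polyribosomes the values were 406, 451, 367 and 502 against 1287, 630, 1588 and 647, again without overlap (1.15 ± 0.28, adjusted p = 0.0143). Mutant cultures 1 and 3 were the highest in both fractions, and without them the polyribosomal change was 0.57 (adjusted p = 0.0735). Eno2 remained a minor form: per kb it made up 0.109% ± 0.020 of enolase reads in control and 0.266% ± 0.119 in mutant total RNA (SD, n = 4), beside Eno1, which read 224904, 215376, 193421 and 198481 in control and 213288, 192608, 166851 and 217859 in mutant cultures.

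The lactate dehydrogenase subunits moved in opposite directions. Ldha, the form that favours lactate production (chr7:46841475-46855627), read 95687, 90572, 84978 and 84417 in control and 67464, 73970, 61582 and 73226 in mutant total RNA. No mutant culture reached a control, and Ldha fell by 0.37 (SE 0.09, adjusted p = 0.0094), whereas under quantile normalization the change was -0.07 (adjusted p = 0.478). On polyribosomes Ldha read 247612, 218188, 192572 and 202164 in control and 180950, 172453, 179830 and 179380 in mutant cultures, which did not overlap but did not pass (-0.27 ± 0.10, adjusted p = 0.0746).

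Ldhb, the form common in oxidative tissue (chr6:142490249-142507957), read 20621, 23780, 22857 and 24261 in control and 31665, 25211, 31075 and 33829 in mutant total RNA. It rose by 0.41 (SE 0.10, adjusted p = 0.0128), and on polyribosomes by 0.77 (SE 0.16, adjusted p = 0.00665), from 51588, 63287, 59225 and 63287 to 114459, 71144, 111235 and 114427. Neither fraction overlapped, with mutant culture 2 nearest to the controls in both. Per kb Ldhb went from 26.4% ± 2.4 to 38.0% ± 4.0 of lactate dehydrogenase reads in total and from 27.9% ± 3.7 to 44.1% ± 5.1 in polyribosomal RNA (SD, n = 4). It was the only member whose efficiency rose (0.36 ± 0.11, adjusted p = 0.041). That call was lost without control culture 2, 3 or 4 or mutant culture 1, 3 or 4, at 0.33 to 0.38.

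**Figure D2:**
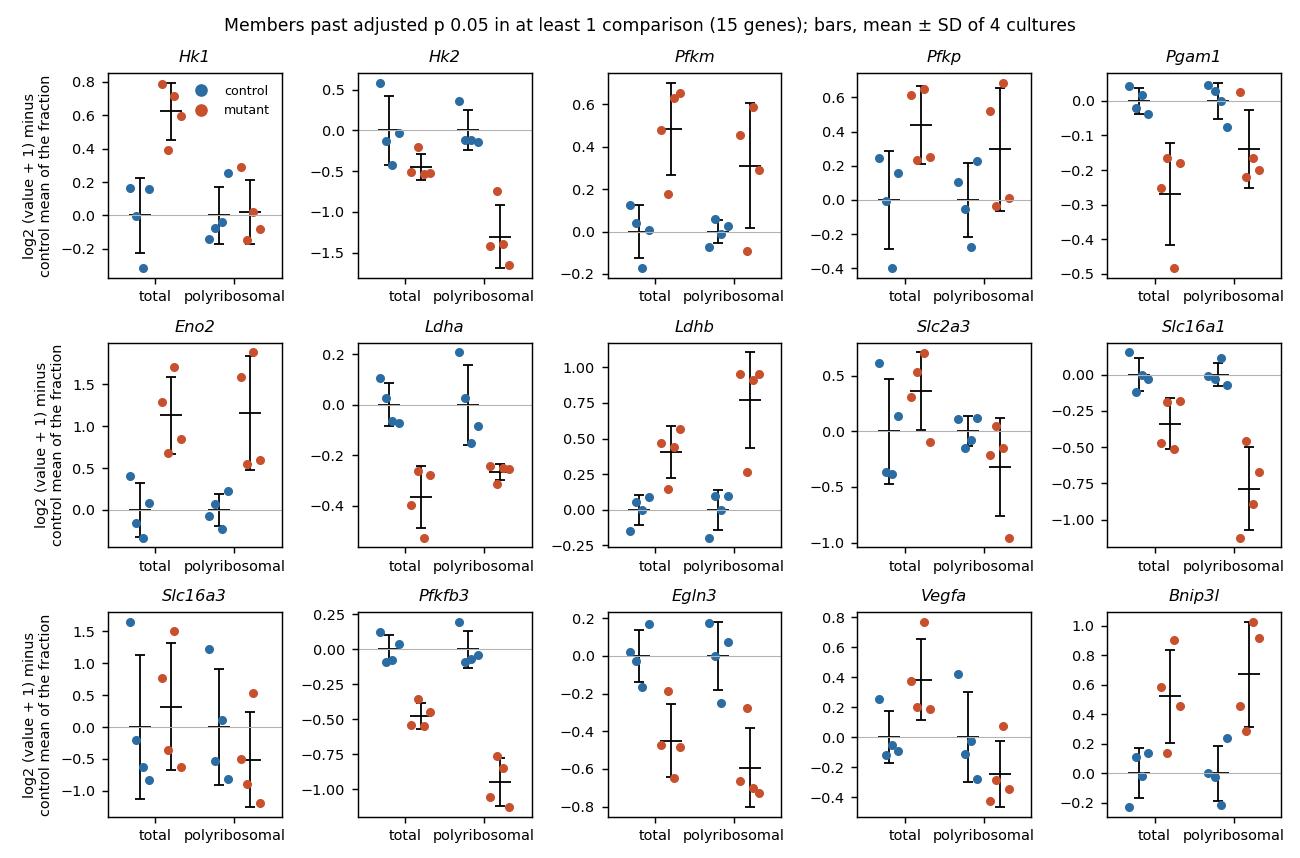
Log2(value + 1) in each culture minus the control mean of the same fraction, for the 15 members that passed in at least 1 comparison, with total RNA at left and polyribosomal RNA at right in each panel, points for cultures and bars for mean ± SD (n = 4). Hk2, Pfkfb3 and Slc16a1 show the mutant points well below the control points on polyribosomes, and Eno2 and Ldhb show them above.

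Of the transporters, the lactate and pyruvate carrier Slc16a1 (MCT1, chr3:104638668-104658462) was the only one that passed as lower in total or polyribosomal RNA. On polyribosomes it read 3467, 3418, 3769 and 3312 in control and 1598, 2535, 1882 and 2190 in mutant cultures. The groups were far apart, and the change was -0.79 ± 0.15 (adjusted p = 0.00544). In total RNA it read 7200, 5946, 6445 and 6339 against 4669, 5673, 4537 and 5713, also without overlap (-0.34 ± 0.10, adjusted p = 0.0258), a call lost without control culture 1, 3 or 4 or mutant culture 1 or 3, at -0.35 to -0.28. Efficiency fell by 0.45 (SE 0.12, adjusted p = 0.0253), a call lost without control culture 2 or 3 or mutant culture 1, at -0.42 to -0.38.

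The glucose carriers Slc2a1 (GLUT1) and Slc2a3 (GLUT3) and the lactate exporter Slc16a3 (MCT4) passed the threshold in neither fraction. Slc2a1 was 0.38 ± 0.16 in total and 0.03 ± 0.12 in polyribosomal RNA, with an efficiency change of -0.34 ± 0.17. Slc2a3 read 3313, 1683, 1665 and 2381 in control and 2692, 3140, 3545 and 2023 in mutant total RNA, but 2152, 1796, 1883 and 2160 against 1714, 2055, 1791 and 1024 on polyribosomes. Its efficiency fell by 0.68 (SE 0.17, adjusted p = 0.0148), a call lost without control culture 3 (-0.58, adjusted p = 0.0546). Slc16a3 was scarce and uneven, at 701, 193, 143 and 125 in control and 378, 172, 633 and 144 in mutant total RNA. On polyribosomes it read 688, 203, 317 and 165 against 208, 157, 422 and 127, overlapping in both fractions. Its efficiency fell by 0.83 (SE 0.25, adjusted p = 0.0365), but the call was lost without control culture 3 or 4 or mutant culture 1, 3 or 4 (-0.92 to -0.58).

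Of the regulators, Pfkfb3, which makes the fructose bisphosphate that activates phosphofructokinase (chr2:11471433-11554077), fell in every comparison. Total RNA read 3263, 2818, 2847 and 3078 in control and 2054, 2348, 2045 and 2191 in mutant cultures, a change of -0.47 ± 0.08 (adjusted p = 0.00392). Polyribosomal RNA read 5357, 4394, 4444 and 4542 against 2243, 2756, 2589 and 2131, a change of -0.95 ± 0.13 (adjusted p = 0.00176), or 0.518 of control. No culture overlapped in either fraction. The total RNA call held in all 19 alternatives and the polyribosomal call in 18, missing the threshold with the Y-linked covariate (-0.97, adjusted p = 0.054). Efficiency fell by 0.47 (SE 0.12, adjusted p = 0.0173), a call lost without control culture 2 or 3 or mutant culture 1, at -0.47 to -0.46. Pdk1 and Pdk3, kinases that switch off pyruvate dehydrogenase, did not pass: Pdk1 was 0.28 ± 0.17 and 0.04 ± 0.21, and Pdk3 -0.28 ± 0.12 and -0.29 ± 0.14.

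Hif1a mRNA did not pass in any comparison (-0.15 ± 0.08 in total and 0.01 ± 0.16 in polyribosomal RNA), nor did Egln1 (PHD2), the main prolyl hydroxylase in most cells (-0.11 ± 0.09 and -0.15 ± 0.12). HIF1A protein was not measured in these data. Egln3 (PHD3), a hydroxylase that is itself induced by hypoxia, read 2469, 2394, 2176 and 2736 in control and 1752, 2139, 1551 and 1741 in mutant total RNA, without overlap. It fell by 0.45 (SE 0.11, adjusted p = 0.0124). On polyribosomes it fell by 0.59 (SE 0.14, adjusted p = 0.014), from 4543, 4016, 3377 and 4230 to 2533, 3314, 2468 and 2428, again without overlap.

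All 7 hypoxia-induced effectors had a log2 change above 0 in total RNA, from 0.01 to 0.99, but only Vegfa and Bnip3l passed. On polyribosomes 5 were above 0 and 2 below, and only Bnip3l passed. Vegfa, the growth factor for blood vessels (chr17:46016993-46032369), read 4190, 3229, 3388 and 3289 in control and 4544, 4038, 5980 and 3990 in mutant total RNA. Control culture 1 lay above mutant cultures 2 and 4, and Vegfa rose by 0.38 (SE 0.14, adjusted p = 0.0489), a call lost without control culture 2, 3 or 4 or mutant culture 1 or 3 (0.26 to 0.39). On polyribosomes the values were 3333, 2306, 2445 and 2050 against 1853, 2042, 2627 and 1962, a change of -0.25 ± 0.17 (adjusted p = 0.306). Vegfa efficiency fell by 0.63 (SE 0.12, adjusted p = 0.00733), a call that every fit without 1 culture kept.

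Bnip3l (NIX), a receptor for the removal of mitochondria (chr14:66985239-67008877), read 3526, 4467, 4096 and 4564 in control and 6205, 4555, 7756 and 5676 in mutant total RNA, where only mutant culture 2 fell inside the control range. It rose by 0.52 (SE 0.15, adjusted p = 0.0221), and on polyribosomes by 0.67 (SE 0.18, adjusted p = 0.019), from 2966, 2907, 2545 and 3488 to 4051, 3597, 6027 and 5567. The total RNA call was lost without control culture 1 (0.44) or mutant culture 1 (0.50), and the polyribosomal call without control culture 2 (0.66) or 3 (0.60). Its relative Bnip3 was 0.34 ± 0.18 and 0.40 ± 0.24.

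The other effectors did not pass in any comparison. Ndrg1, a stress-response gene, was 208 to 439 in control and 340 to 1486 in mutant total RNA, a change of 0.99 ± 0.44 (adjusted p = 0.0929), with mutant culture 3 far above the rest. On polyribosomes Ndrg1 was 0.77 ± 0.51. P4ha1, a collagen prolyl hydroxylase, was 0.24 ± 0.13 in total and 0.11 ± 0.13 in polyribosomal RNA. The oxidoreductase Ero1l was 0.06 ± 0.11 and -0.18 ± 0.14, and Ankrd37 0.01 ± 0.27 and 0.42 ± 0.33. Deviations from the genotype mean were compared between genes over the 8 cultures. In total RNA the effectors varied together, with a median Pearson r of 0.75 over 21 gene pairs, from 0.11 to 0.98. High r values were not limited to effector pairs. Slc2a1 and P4ha1 had r = 0.96, Eno2 and Bnip3 0.93, and Pdk3 and Bnip3 -0.91. Vegfa and Ndrg1 had r = 0.98, the largest of any member pair, and mutant culture 3 was the highest for both. The median r was 0.45 for the hexokinase to aldolase steps and 0.56 for the triose phosphates to lactate steps. On polyribosomes the effectors had a median r of 0.20. These points share libraries and their depth, and the coefficients are descriptive.

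Ratios between paralogues within a library do not depend on scaling between libraries, and 11 pairs were compared in both fractions by a two-sided exact permutation test. Of the 22 ratios, 9 did not overlap between genotypes, each at p = 0.0286 by the exact permutation test, the smallest that 70 splits allow, which became 0.0698 after Benjamini-Hochberg adjustment over the 22. None therefore passed. The log2 ratio of Hk2 to Hk1 was -2.72 ± 0.29 in control and -3.79 ± 0.32 in mutant total RNA, and -1.63 ± 0.37 against -2.95 ± 0.50 on polyribosomes. Ldhb to Ldha went from -1.96 ± 0.18 to -1.19 ± 0.25 and from -1.86 ± 0.28 to -0.82 ± 0.31. Eno2 to Eno1 was higher by 1.21 and 1.18, Pfkm to Pfkl by 0.70 and 0.77, and Pfkp to Pfkl by 0.65 in total RNA, while on polyribosomes the last overlapped (0.76). Leaving out 1 culture at a time gave 9 to 12 ratios without overlap. Removing a culture cannot create an overlap, so this count could not fall and is no check on the 9. The ratios of Aldoc to Aldoa, Slc2a3 to Slc2a1, Slc16a3 to Slc16a1, Pdk3 to Pdk1, Bnip3l to Bnip3 and Egln3 to Egln1 overlapped in both fractions.

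**Figure D3:**
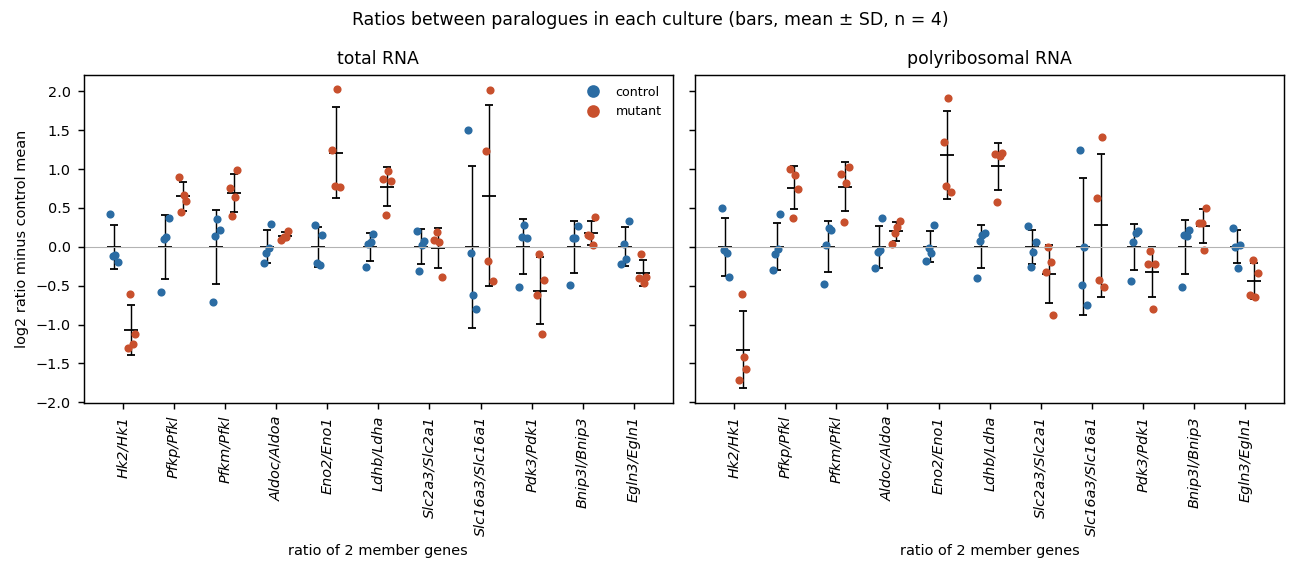
Log2 ratio of 2 paralogous members in each culture minus the control mean of the ratio, in total RNA (left) and polyribosomal RNA (right), with points for cultures and bars for mean ± SD (n = 4). Hk2 over Hk1 was lower by 1.07 and 1.33 in mutant cultures, and Ldhb over Ldha higher by 0.77 and 1.04, without overlap.

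Recovery on polyribosomes was taken as log2 of polyribosomal over total value in a culture, minus the same over the median gene of that culture. The tables were normalized separately, so this is a level without a test. The glycolytic enzymes stood near the top of the 14333 genes. In control cultures all 17 were above the median gene and 12 were in the top 10% of genes. Aldoa stood at 1.98 ± 0.03 (percentile 99.8), Gapdh at 1.96 ± 0.13, Eno1 at 1.96 ± 0.04 and Pfkl at 1.90 ± 0.28 (SD, n = 4). The median was 1.62 for the steps from hexokinase to aldolase and 1.64 for those from the triose phosphates to lactate. Hk1 was the enzyme with the lowest recovery, at 0.10 ± 0.22 (percentile 54.7), well under Hk2 at 1.20 ± 0.20 (percentile 87.1).

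Transporters and effectors were recovered less. The 4 transporters had a median of 0.12, with Slc16a1 at -0.70 ± 0.10 (percentile 24.9), and the 7 effectors a median of -0.30. Ero1l at -1.59 ± 0.15 (percentile 6.13) and P4ha1 at -1.29 ± 0.22 (percentile 10.6), which encode enzymes of the endoplasmic reticulum, were the lowest members, whereas Ndrg1 was at 1.66 ± 0.08 (percentile 97.2). Across the 34 members recovery and transcript length had a Spearman coefficient of -0.47, and recovery and coding length -0.09, given as a description over genes that share libraries.

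In mutant cultures the median over the 34 members was 0.54, against 0.87 in control, but the middle of the mutant order falls in the gap between Pfkfb3 at 0.38 and Eno2 at 0.71, the median efficiency change was -0.07, and members in the top 10% of genes numbered 14 in mutant and 13 in control cultures. Slc16a3, scarce and uneven between cultures, had the largest drop in the ranking of all genes, from percentile 70.02 to 41.0, followed by Slc2a3, from 53.1 to 26.8, Hk2, from 87.1 to 63.0, Hk1, from 54.7 to 30.9, and Vegfa, from 38.7 to 17.6. Smaller drops were those of Pfkfb3, from 77.3 to 63.5, Slc2a1, from 57.7 to 44.7, and Slc16a1, from 24.9 to 12.8. For Hk2 the 4 mutant cultures stood at 0.30, 0.65, 0.38 and 0.13 and the controls at 1.02, 1.19, 1.49 and 1.10. The most abundant enzymes kept their place: Aldoa stood at 2.15 ± 0.16 and Gapdh at 2.17 ± 0.26 in mutants, at percentiles 99.9 and 99.9.

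**Figure D4:**
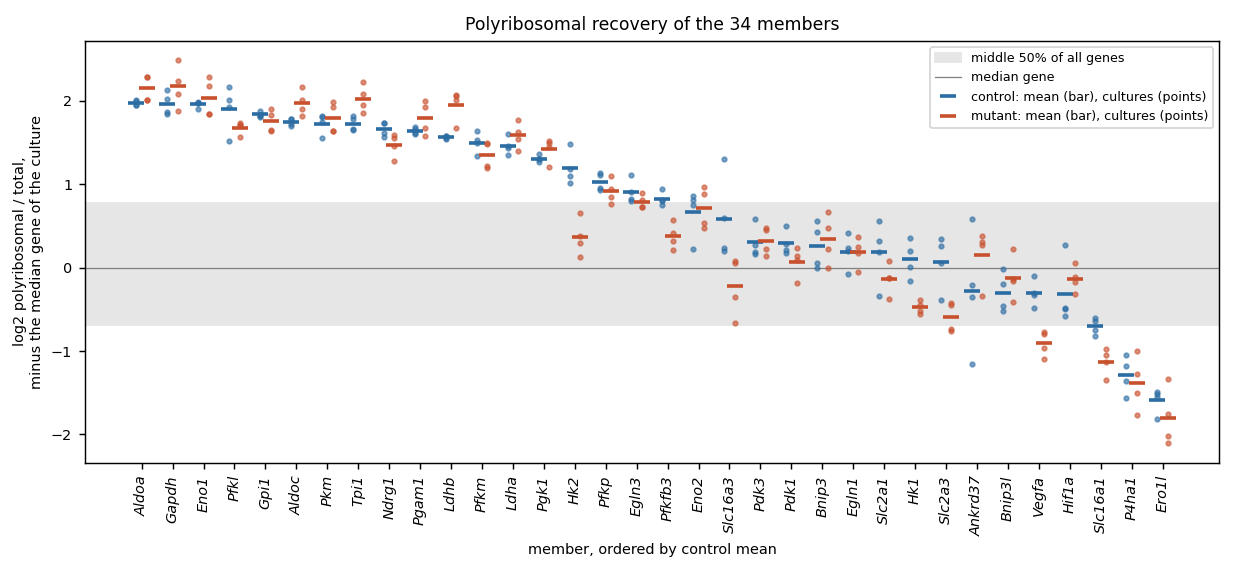
Recovery on polyribosomes of each member (log2 of polyribosomal over total value minus the median gene of the culture, y axis), ordered by the control mean, with points for cultures, bars for means and a band for the middle 50% of all genes. Most glycolytic enzymes have control means between 1.31 and 1.98, and the mutant values of Hk2, Hk1, Pfkfb3, Slc16a1 and Vegfa lie below those of every control culture.

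Other genes of these pathways were counted from fixed lists. Of 44 further glycolysis and pyruvate genes tested in total RNA, 11 were higher and 6 lower, and in polyribosomal RNA 5 were higher and 6 lower of 45, with median changes of -0.01 and -0.01. Beside the 40.3% and 23.6% of all genes called, these counts do not set the list apart. The higher genes with the smallest p in total RNA were the insulin-responsive glucose carrier Slc2a4 (2.09 ± 0.30, adjusted p = 0.00263), Slc2a8 (0.96 ± 0.17), the gluconeogenic phosphatase Fbp1 (1.39 ± 0.24), the pyruvate dehydrogenase kinase genes Pdk2 (1.07 ± 0.19) and Pdk4 (1.06 ± 0.28), and Eno3 (0.49 ± 0.14). Slc2a4 and Fbp1 were scarce, at 137 ± 53 and 35.9 ± 4.7 normalized reads in mutant and 30.2 ± 7.0 and 13.0 ± 1.6 in control total RNA. The lower genes included Adpgk, which phosphorylates glucose with ADP (-0.54 ± 0.12, adjusted p = 0.0073), Pgm2l1 (-0.56 ± 0.14), the fructose bisphosphatase Tigar (-0.60 ± 0.16), Minpp1 (-0.44 ± 0.13) and Dlat, a subunit of pyruvate dehydrogenase (-0.29 ± 0.10). For efficiency 2 were higher and 2 lower of 44, beside 5.07% and 7.89% of all genes.

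Of 57 further genes of the HIF pathway and hypoxia response tested in total RNA, 20 were higher and 9 lower, with a median change of 0.30, beside 19.7% and 20.7% of all genes. In polyribosomal RNA 12 were higher and 5 lower of 58, beside 11.7% and 11.9% of all genes. The higher ones with the smallest p were the lipoprotein receptor Vldlr (0.96 ± 0.11, adjusted p = 0.00219), the repressor Bhlhe41 (0.96 ± 0.12), the HIF partner Arnt2 (0.87 ± 0.12), Plod1 (0.89 ± 0.16), Hmox1 (0.53 ± 0.10) and Igfbp3 (0.62 ± 0.11). The HIF2A gene Epas1 and Hif3a rose by 1.52 and 1.81 in total and by 0.98 and 1.09 in polyribosomal RNA. These 2 were named after their values were seen. The lower ones were Ak4, a mitochondrial adenylate kinase (-0.68 ± 0.11, adjusted p = 0.00327), Jmjd6 (-0.51 ± 0.08), Fam162a (-0.44 ± 0.08), Mif (-0.50 ± 0.10), the lipid droplet gene Hilpda (-0.52 ± 0.12) and Stc2 (-0.51 ± 0.12). For efficiency 6 were higher and 6 lower of 57, beside 5.07% and 7.89% of all genes. Fam162a, Mif and Hilpda were at -0.03 ± 0.12, -0.04 ± 0.10 and 0.06 ± 0.14 on polyribosomes, and their efficiency rose by 0.41, 0.45 and 0.58 (limma adjusted p of 0.0345, 0.0196 and 0.0248). Efficiency was lower for Epas1 and Arnt2, with log2 changes of -0.54 and -0.39 (limma adjusted p of 0.0174 and 0.0361).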

How the data were processed

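Primary V-SVZ NSC cultures were profiled as total and polyribosomal RNA. Polyribosomes were taken as the heavy 3 mL of gradients of 17.5% to 50% sucrose, and polyadenylated RNA was sequenced with an unstranded kit. The authors aligned reads with STAR to mm10 and normalized them with DESeq2, per the methods and the submitters' processing notes. Which read counter and annotation they used is not given in the sources used here. The deposited values are a signal, that is, gene read numbers scaled by library factors, with each fraction in its own table. With 1 step per library, 62.7% to 89.4% of low values lay within 0.1 of a multiple of the step, so whole reads were not recovered and no count test was run. Dividing column totals by the step put depth between 24.7 M and 140 M in total RNA and between 50.8 M and 269 M in polyribosomal RNA, which limits precision for scarce genes such as Ankrd37. Of 24972 rows, 26 turned into dates were left out. Groups came from the labels.

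Values were tested as log2(value + 1) with limma 3.58.1 (R 4.3.3, trend and robust moderation), which understates changes of low genes. Log2 changes carry standard errors. Genes with a mean of at least 10 were tested: 14967 in total, 14412 in polyribosomal RNA and 14333 in both. The threshold was a Benjamini-Hochberg adjusted p of 0.05 over all genes tested. Total and polyribosomal RNA were fitted by genotype over 8 libraries each, and efficiency as the interaction of genotype and fraction over 16 libraries with culture as a block. Total and polyribosomal libraries of a culture share an identifier in the descriptions, and their deviations from the group means correlated at 0.233 to 0.731. Scripts were tested on simulated data. Transcripts and gene positions are from GENCODE M21 (GRCm38, the build of mm10), and promoters from RefSeq. Summaries of sequence were made with Python 3.11.15. The 34 members, the other lists and the tests were chosen with earlier results of these data known. Every member is named, with values by culture for those past the threshold in any comparison; of the other lists, up to 6 genes per direction by smallest adjusted p in total RNA are named, except 1 that is not reported here.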

Additional observations from a re-analysis of the deposited data

Results flagged for a closer look

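In 11 of 136 groups of 4 cultures (34 members, 2 genotypes, 2 fractions) 1 culture stood apart by Dixon's criterion, which chance alone meets in about 1 in 20 groups. In total RNA these were Hk2 in mutant culture 2 (1411, the highest), Gapdh in mutant culture 3 (161354, the lowest), Slc16a3 in control culture 1 (701, the highest), Egln1 in mutant culture 3 (8770, the lowest), Vegfa in control culture 1 (4190, the highest) and Ndrg1 in mutant culture 3 (1486, the highest). In polyribosomal RNA they were Hk2 in control culture 1 (4234, the highest), Ldhb in mutant culture 2 (71144, the lowest), Pdk1 in control culture 1 (1680, the highest), Pfkfb3 in control culture 1 (5357, the highest) and Egln3 in mutant culture 2 (3314, the highest).

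The genotype effect differed between polyribosomal and total RNA for 8 members, by the interaction in limma at an adjusted p of 0.05. The difference was -0.60 for Hk1, -0.86 for Hk2, -0.68 for Slc2a3, -0.45 for Slc16a1, -0.83 for Slc16a3, -0.47 for Pfkfb3 and -0.63 for Vegfa, and 0.36 for Ldhb. No cause of these differences was tested.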

How the results depend on the processing

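No called member changed direction under any alternative, and 110 sign changes concerned members that passed under neither setting. The cause of the moves below was not tested. Total RNA gave 2944 higher and 3091 lower genes, and 7 and 5 members. Without mutant cultures 1 and 3 these were 1150 and 1161 genes with 1 and 1 members, and with the Y-linked covariate 528 and 535 genes with 0 and 1 members. Members lower numbered 3 with column totals alone, 3 with quantile normalization, 8 without mutant cultures 2 and 4 and 8 with the microglial covariate. With column totals the median change of all genes was 0.11 in total and 0.13 in polyribosomal RNA, against 0.01 and 0.01 in the main fits. Leaving out 1 culture gave 4 to 8 members higher and 3 to 6 lower. In polyribosomal RNA (1690 and 1713 genes, 3 and 4 members) column totals gave 2583 and 929 genes, 5 members higher and a members' median of 0.13. Quantile normalization gave 1306 and 1450 genes and 6 members higher. Without mutant cultures 2 and 4 there were 2582 and 2813 genes and 7 members higher, and with the microglial covariate 1982 and 2054 genes and 6 members higher. Without mutant cultures 1 and 3 there were 539 and 640 genes, 0 members higher and a median of -0.11, and with the Y-linked covariate 26 and 17 genes and 0 and 0 members. Leaving out 1 culture gave 985 to 1981 genes higher, 892 to 2105 lower and 2 to 5 members higher, with over 1.5 times fewer genes without control culture 1, 2 or 3 or mutant culture 1 or 3. For efficiency (727 and 1131 genes, 1 and 7 members) 0 and 0 genes and 0 and 0 members passed with limma without trend and robust moderation, without mutant cultures 1 and 3 (members' median -0.15) and with the Y-linked covariate, where 3980, 3250 and 2214 genes had an unadjusted p under 0.05. The microglial covariate gave 368 and 270 genes and 2 members lower. Members higher were 0 with no filter, 2 with column totals, 3 with quantile normalization and 3 without mutant cultures 2 and 4. Leaving out 1 culture gave 187 to 1496 genes higher, 439 to 1786 lower, 0 to 1 members higher and 3 to 9 lower, the fewest genes without mutant culture 1 (187 higher) and control culture 3 (439 lower) and the most without control culture 1. The members' median recovery in mutants was 0.63 with a mean of at least 100 in both tables.

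Control and mutant cultures of the same number share only a number, with correlations of their deviations from -0.127 to 0.127. With the replicate number as a block 5 members were higher and 3 lower in total RNA (2402 and 2339 genes), where Pfkp, Pgam1, Slc16a1 and Vegfa did not pass, and 3 and 4 in polyribosomal RNA (1176 and 1185 genes). Without culture as a block 0 and 0 genes and 0 and 0 members passed for efficiency in limma, with 2221 genes at an unadjusted p under 0.05. Depth and 4 cultures a group limit what can be seen for scarce members such as Slc16a3 and Ankrd37.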
